A study of Mus musculus with 2 samples.

Results

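Mir22 is the mouse gene of the microRNA miR-22. It was chosen by its measured values, as an abundant gene with a large difference between libraries, and it is 1 of the 2202 microRNA genes in the deposited count tables. Small RNA, labelled as below 30 bases, was read from left cortex tissue of B6CASTF1/J males aged 36 days. B6CASTF1/J is a cross of C57BL/6J with a CAST strain. No treatment or introduced allele is labelled. The study holds 1 group of 2 libraries, numbered as biological replicate 1 (labelled male 3) and replicate 2 (labelled male 4), so it contains no comparison between conditions. Both carry 1 donor identifier in the labels, so it cannot be told from them whether the tissue came from 2 animals or from 1. The only comparison possible is between the 2 libraries, and differences below are descriptions of these libraries with no test.

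A microRNA gene is transcribed into a primary transcript from which a hairpin is cut, and the hairpin is cut again into a duplex of about the length of the mature strand. One strand enters an Argonaute protein and pairs, mainly through its seed (bases 2 to 8 from the 5′ end), with sites in messenger RNAs, which are then repressed. miR-22 is expressed in many tissues and is very abundant in heart and skeletal muscle, where it takes part in cardiac hypertrophy. Its described targets include Tet2, which oxidises methylated cytosine, and the histone deacetylase Hdac4. In neurons it has been studied for protective effects in models of neurodegeneration.

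The hairpin and both mature strands are shown because all reads counted for Mir22 come from them. The sequences are those of RefSeq (GRCm38.p6, the mm10 coordinates), on the plus strand of chromosome 11. In the hairpin the capitals mark the mature strands, and in each mature strand they mark the seed.
Mir22 hairpin (chr11:75463716-75463810): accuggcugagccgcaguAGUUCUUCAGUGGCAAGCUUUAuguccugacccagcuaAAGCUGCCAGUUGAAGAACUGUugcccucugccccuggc
miR-22-5p (chr11:75463734-75463755): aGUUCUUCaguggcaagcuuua
miR-22-3p (chr11:75463772-75463793): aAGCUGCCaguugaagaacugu

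The hairpin is 95 bases long with 16 bases between the strands. In its predicted minimum-energy fold (-41.9 kcal per mol), 19 of the 22 bases of miR-22-3p paired with miR-22-5p, and all 7 bases of the 3p seed were among them. GC content was 55.8% for the hairpin, 40.9% for miR-22-5p and 45.5% for miR-22-3p. Among the 1738 mature microRNAs of the RefSeq table, 0 others had bases 2 to 8 of either strand of miR-22, so no second gene of the table supplies its seed. A shorter match, bases 2 to 7 of miR-22-5p, was found in miR-6935-3p and miR-7092-3p. Their genes were scarcely counted: Mir6935 had 4 counts in replicate 1 and 3 in replicate 2, and Mir7092 had 1 and 0.

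Mir22 (ENSMUSG00000065529.1) lies on chromosome 11 at 75463716 to 75463810. In GENCODE M21 it is inside exon 2 of Mir22hg, its non-coding host gene on the same strand (75461539 to 75466676), in both annotated transcripts. A non-coding transcript of the protein-coding gene Tlcd2 also holds it in its exon 2 (75463693 to 75463857), and neither exon is annotated as UTR or coding. The nearest other protein-coding genes are Wdr81, which ends 8999 bases before it on the minus strand, and Prpf8, which starts 23006 bases after it on the plus strand. Mir22 shares no stretch of 22 bases with another annotated microRNA locus on either strand, whereas 1081 of the 2202 genes do. Counts lack reads that map to more than 1 place. A stretch can also be shared with a gene on the opposite strand of the same place, so sharing alone does not show missing reads.

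Replicate 1 gave 67285 reads on the gene's own strand at Mir22, and replicate 2 gave 11223. The opposite-strand count was 0 in both libraries, and the unstranded counts were the same 67285 and 11223. The libraries were of nearly equal depth, with 4273791 own-strand counts at microRNA genes in replicate 1 and 4010274 in replicate 2. Levels are given in CPM, own-strand counts per 1000000 at microRNA genes. They are not divided by gene length, since a read covers a mature strand and not the whole hairpin. Mir22 stood at 15744 CPM in replicate 1 (exact 95% Poisson interval 15625 to 15863) and at 2799 CPM in replicate 2 (2747 to 2851). Replicate 1 is the high library, and the intervals, which cover counting error only, do not overlap. The mean was 9271 ± 9154 CPM (SD, n = 2), an SD almost as large as the mean.

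Mir22 took 1.57% of the own-strand counts in replicate 1 (exact 95% binomial interval 1.56 to 1.59) and 0.280% in replicate 2 (0.275 to 0.285). Its rank was 12 in replicate 1 and 57 in replicate 2. In replicate 1 the genes on either side were Mir125a at 17043 CPM (16919 to 17167) and Mir433 at 14780 CPM (14665 to 14895). Neither overlapped Mir22 within counting error, and Mir23b at rank 10 and Mir99a at rank 14 lay farther out, at 20603 and 14639 CPM. In replicate 2 its neighbours were Mir181d at 2840 CPM (2788 to 2893) and Mir100 at 2717 CPM (2666 to 2768), and both intervals overlapped that of Mir22. The next outward were Mirlet7f-2 at 2867 CPM and Mir181b-2 at 2646 CPM. Of these rank neighbours, the 4 from replicate 1 had between 8685 and 16275 CPM in replicate 2, all above Mir22 there. The 4 from replicate 2 had between 1593 and 4116 CPM in replicate 1, all below it. Since Mir22 was chosen for its difference between the libraries, this is no separate result.

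**Figure D1:**
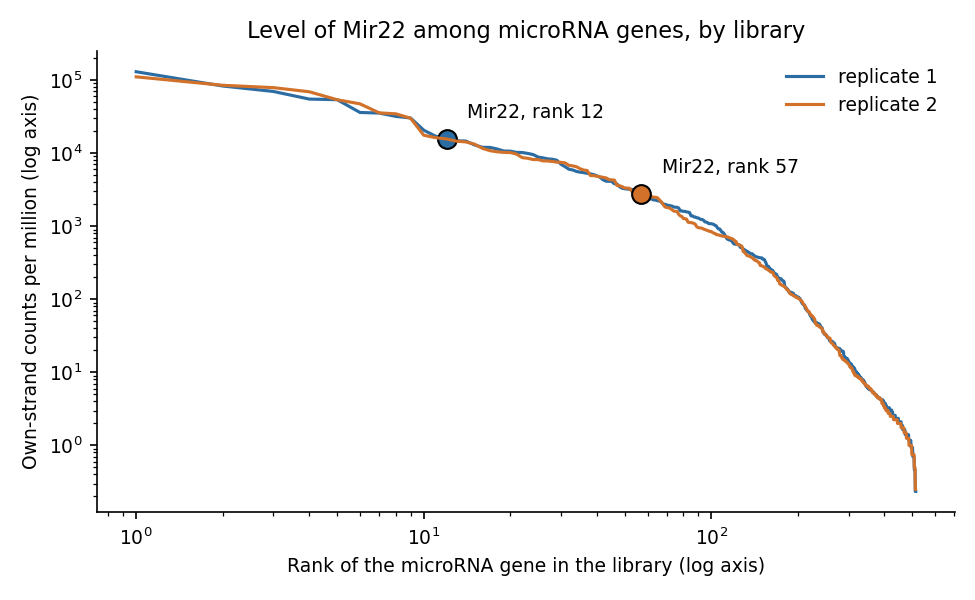
Own-strand CPM (vertical, log axis) against rank (horizontal, log axis) of microRNA genes whose summed count over both libraries reached 10, with 1 line per library and a point for Mir22. The lines nearly coincide, while Mir22 stands at rank 12 with 15744 CPM in replicate 1 and at rank 57 with 2799 CPM in replicate 2.

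The log2 ratio of replicate 2 to replicate 1, on library sizes scaled by TMM, was -2.45 for Mir22 (exact 95% binomial interval -2.48 to -2.42, counting error only). This is a level 5.47-fold higher in replicate 1 (5.36 to 5.58). The ratio has no replicate check. As background, a gene was called different at 2-fold or more where its summed count over both libraries reached 100. Of 309 such genes 54 were called (17.5%), with 36 lower in replicate 2 (11.7%) and 18 higher (5.83%). At 4-fold or more 14 were called (4.53%), and the 7 lower ones (2.27%) include Mir22. Since Mir22 was chosen on this contrast, its call is no result. The median log2 ratio of the 309 genes was -0.04 and the median absolute log2 ratio 0.46.

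Only 3 of the 309 genes had a lower log2 ratio than Mir22, and all 3 share stretches of 22 bases with other loci: Mir26a-2, Mir24-1 and Mir181a-2. Among the 232 genes without a shared stretch, 0 had a lower one. Another 6 genes differed by more in the other direction. Of the 99 genes with a mean of 1000 CPM or more, 13 passed 2-fold (13.1%), with 10 lower in replicate 2 (10.1%) and 3 higher (3.03%). Of the 99, 1 had a larger absolute log2 ratio than Mir22. That gene, named after its values were seen, was Mir185 at 215.5 CPM in replicate 1 against 2447 CPM in replicate 2. The difference of 12945 CPM at Mir22 was the sixth in absolute size among all genes. Larger ones belonged to genes of higher mean level, such as Mir139 at 130099 and 84864 CPM, whose log2 ratio was nearer 0.

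**Figure D2:**
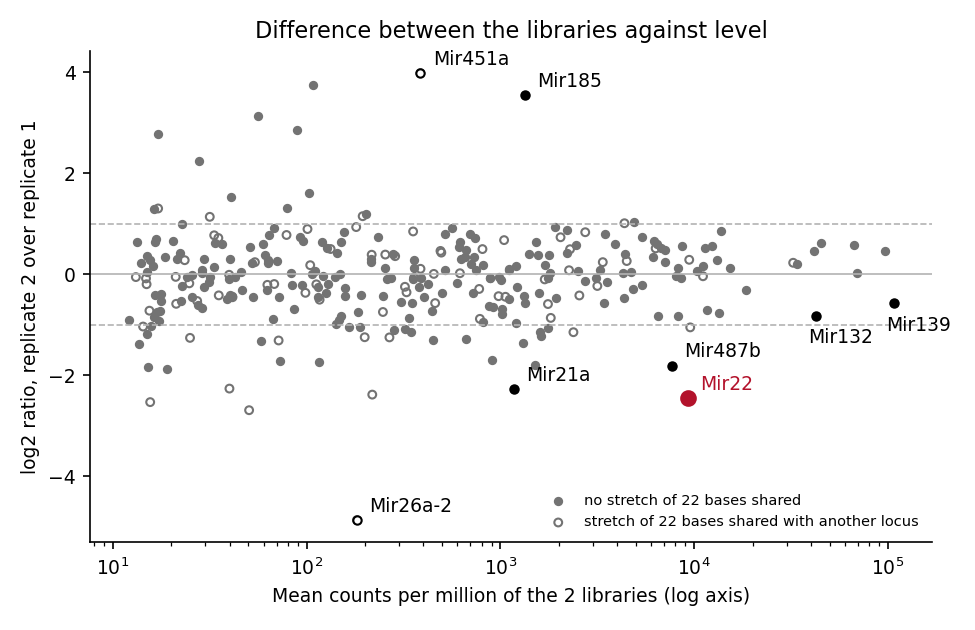
log2 ratio of replicate 2 over replicate 1 (vertical) against mean CPM (horizontal, log axis) for 309 microRNA genes; open points mark genes with a shared stretch of 22 bases and dashed lines mark 2-fold. Mir22, in red, lies at -2.45 and a mean of 9271 CPM, lower than every other gene with a mean of 1000 CPM or more.

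The genes most like Mir22 in this difference were taken as the 6 nearest in log2 ratio among the 309, a likeness over 2 libraries only. All 6 were lower in replicate 2, which the choice fixes. Both mature strands of each gene are shown, with seeds in capitals, to compare them with miR-22. RefSeq held all 6 genes, and 1 line is given for miR-24-3p, which both Mir24 genes encode.
miR-380-5p: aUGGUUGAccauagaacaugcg
miR-380-3p: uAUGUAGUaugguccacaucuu
miR-181a-5p: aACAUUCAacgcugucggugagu
miR-181a-2-3p: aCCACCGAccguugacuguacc
miR-21a-5p: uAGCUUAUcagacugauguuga
miR-21a-3p: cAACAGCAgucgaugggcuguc
miR-24-2-5p: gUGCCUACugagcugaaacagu
miR-24-1-5p: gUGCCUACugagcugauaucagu
miR-24-3p: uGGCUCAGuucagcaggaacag
miR-499-5p: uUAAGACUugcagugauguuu
miR-499-3p: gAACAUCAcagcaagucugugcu

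None of these seeds is that of miR-22-5p or miR-22-3p. The nearest gene was Mir380, of the imprinted cluster on chromosome 12, with 368 CPM in replicate 1 against 68.6 CPM in replicate 2 (log2 ratio -2.38, interval -2.57 to -2.20). Mir181a-2 stood at 26.7 and 4.49 CPM (-2.53, -3.34 to -1.81), on 114 and 18 counts. Both are well below Mir22 in level, and both share stretches with other loci. Mir21a, a growth-associated microRNA in an exon of Vmp1 on chromosome 11 (86584067 to 86584158), stood at 1953 CPM in replicate 1 against 394 CPM in replicate 2. Its log2 ratio was -2.27 (-2.35 to -2.19), and it shares no stretch. Of the 6 it is the only gene with a mean above 1000 CPM.

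Mir24-2 had 66.5 and 13.5 CPM (-2.26, -2.71 to -1.84) and Mir24-1 had 87.7 and 13.2 CPM (-2.69, -3.13 to -2.27) in replicates 1 and 2. These genes encode the same miR-24-3p, so their counts lack reads that fit both loci. Mir499, from an intron of the myosin gene Myh7b and best known from heart and slow muscle, had 29.9 and 7.98 CPM (-1.87, -2.48 to -1.30). The interval of Mir21a did not overlap that of Mir22, and those of the other 5 genes did. Those 5 rest on far fewer counts than Mir22.

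**Figure D3:**
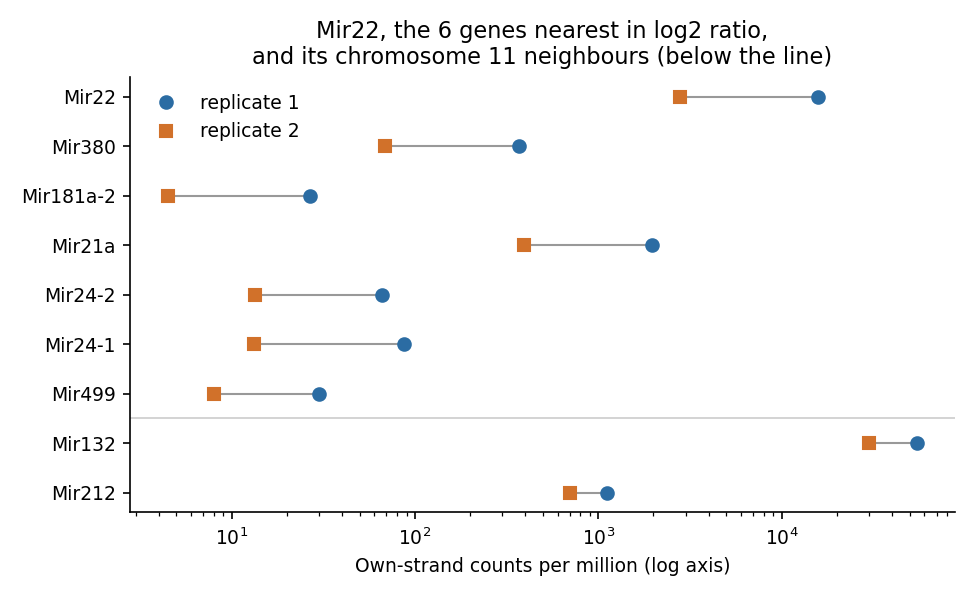
CPM (log axis) in replicate 1 (circles) and replicate 2 (squares) of Mir22, of the 6 genes nearest to it in log2 ratio and, below the line, of Mir132 and Mir212. Mir22 moves from 15744 to 2799 CPM and Mir21a from 1953 to 394 CPM, while Mir132 moves from 54937 to 30022 CPM.

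The annotated microRNA genes within 1 Mb of Mir22 on chromosome 11 were 5 in number. Mir132, which neuronal activity induces, lies 289969 bases away in an intron of 1700016P03Rik and had 54937 CPM in replicate 1 against 30022 CPM in replicate 2. Its log2 ratio was -0.83 (-0.84 to -0.82). Mir212, cut from the same transcript as Mir132, had 1121 and 700 CPM, a log2 ratio of -0.64 (-0.71 to -0.57). Both neighbours were thus lower in replicate 2, but neither reached 2-fold, and their intervals lie far from that of Mir22. Mir6926 had 4 counts in replicate 1 and 18 in replicate 2. Gm47300 and Mir3971 had 0 in both libraries, where a count of 0 allows up to 0.702 CPM (replicate 1) or 0.748 CPM (replicate 2). Over the other genes of chromosome 11, 3 of 21 with 100 or more counts were 2-fold or more lower and 2 higher (over all 309 genes, 11.7% and 5.83%), with a median log2 ratio of 0.04.

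MicroRNA genes in an exon of a long non-coding host, the position Mir22 has in Mir22hg, numbered 73. Without Mir22, 34 of them had 100 or more counts. Of these 3 were 2-fold or more lower in replicate 2 and 0 higher (over all 309 genes, 11.7% and 5.83%), and the median log2 ratio was 0.03, beside -0.04 over all 309 genes. Mirlet7b, the most abundant of them, had 69867 CPM in replicate 1 against 69188 CPM in replicate 2. Mirlet7d had 35382 and 47302 CPM, and Mir770, in an exon of Meg3, had 12002 and 14252 CPM. Mir191 had 8612 and 10233 CPM. Mir22 had the lowest log2 ratio of the 35 genes, and the next lowest was Mir101a at -1.73. Below 100 counts, Mir1247 in an exon of Dio3os had 56 counts in replicate 1 and 9 in replicate 2. Mir3078, named after its values were seen, went the other way, with 24 and 60 counts.

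Mir22 was set beside other microRNAs reported to repress Tet enzymes. Of this list of 11 genes, 10 had 100 or more counts, 3 were 2-fold or more lower in replicate 2 and 0 higher (over all 309 genes, 11.7% and 5.83%), with a median of -0.32. The 3 were Mir26a-2 at 352 and 11.7 CPM, which shares stretches, Mir101a at 179 and 52.4 CPM, and Mir101b at 388 and 175 CPM. Mir29a, the most abundant, had 8255 and 7810 CPM, and Mir26b had 4324 and 4277 CPM, both nearly level between the libraries. The list summed to 15940 CPM in replicate 1 against 14770 CPM in replicate 2. Of its 11 genes 7 have shared stretches, so this sum may lack reads that map to more than 1 place.

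Cell-type markers were described in the same way, since the tissue is a mixture. In bulk tissue, fewer cells of a type and less of the microRNA per cell cannot be told apart. The neuronal list was present at high level in both libraries. It summed to 94415 CPM in replicate 1 against 63053 CPM in replicate 2, with 16 of 17 genes counted and Mir124a-2 at 0. Most of that difference was Mir132: without it, a split chosen after its values were seen, the sums were 39478 and 33031 CPM. Of 14 genes with 100 or more counts, 3 were 2-fold or more lower (Mir128-1, Mir128-2 and Mir129-1) and 0 higher, beside 11.7% and 5.83% of all 309 genes, with a median of -0.33. Mir128-1 had 12977 and 6096 CPM and Mir138-1 had 5292 and 7354 CPM, so the most abundant neuronal genes were on both sides of 0. The 3 called genes and Mir138-1 share stretches with other loci. Their counts lack reads that map to more than 1 place and do not give the levels of miR-128, miR-129 or miR-138. Mir124a-3, a gene of the neuron-specific miR-124, had 20 counts in replicate 1 and 4 in replicate 2. Mir124a-1, named after its values were seen, went the other way, with 10 and 15 counts. The 3 Mir124a genes share stretches, so their counts do not give the level of miR-124.

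The striated muscle list was the marker list with the lowest median, -1.20 over the 2 genes with enough counts, Mir499 and Mir206 (26.9 and 18.2 CPM). Mir208b, from an intron of the myosin gene Myh7, had 63 counts in replicate 1 and 6 in replicate 2. Mir1a-1, Mir133a-2 and Mir133b had 0 counts in both libraries, and Mir1a-2 and Mir133a-1 at most 3. Of these genes only Mir133b has no shared stretch, so the counts of the others do not give the level of miR-1 or miR-133a. The whole list summed to 80.5 CPM in replicate 1 against 29.9 CPM in replicate 2, without reads that map to more than 1 place. This sum therefore does not measure muscle RNA.

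Glial and vascular lists had few genes with 100 or more counts. Median log2 ratios were -0.50 (oligodendrocyte, 2 genes) and -0.46 (astroglial and progenitor, 2 genes). They were -0.04 (endothelial, 1 gene) and 0.12 (mural, 2 genes). The neuronal median was -0.33 and the striated muscle median -1.20. The oligodendrocyte list summed to 5098 and 3543 CPM in replicates 1 and 2, with Mir219a-2 at 2956 and 2152 CPM and Mir338 at 2136 and 1382 CPM. Mir219a-1 went the other way, with 24 counts in replicate 1 and 35 in replicate 2, and Mir219b had 0 and 1. The astroglial and progenitor list summed to 94.5 and 75.6 CPM, led by Mir9-3 at 73.5 and 62.6 CPM. Its 3 Mir9 genes share stretches, so their counts do not give the level of miR-9. Endothelial Mir126a stood at 11394 and 10799 CPM, with Mir126b at 0 in both. All 4 oligodendrocyte and both endothelial genes also have shared stretches, and whether their counts lack reads for that reason was not tested. The mural list summed to 5178 and 7691 CPM, with Mir143 at 4892 and 7484 CPM, Mir145a at 286 and 208 CPM and Mir145b at 0. None of the genes with 100 or more counts in these glial and vascular lists reached 2-fold, beside 17.5% of all 309 genes. They are too few to set against that share.

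The microglial and leukocyte list summed to 2230 CPM in replicate 1 against 2066 CPM in replicate 2, with Mir142b at 0. Mir150 was lower in replicate 2, at 1334 and 1091 CPM, while Mir146 (773 and 858 CPM) and Mir155 (64.8 and 75.8 CPM) were higher. None of its 4 genes with 100 or more counts reached 2-fold, which 17.5% of all 309 genes did. Mir223 of neutrophils had 70 counts in replicate 1 and 2 in replicate 2. The red-cell list, of which 4 of 5 names matched a gene, summed to 83.5 and 794 CPM, with Mir451b at 0. Without Mir451a, left out after its values were seen, the sums were 36.5 and 68.6 CPM. Of its 3 genes with enough counts, 2 were 2-fold or more higher, Mir451a (47.0 and 726 CPM) and Mir144 (9.83 and 45.6 CPM). The third, Mir486, had 26.7 and 22.9 CPM (log2 ratio -0.18, -0.59 to 0.23). Over all 309 genes, 5.83% were 2-fold or more higher and 11.7% lower. Mir451a and Mir486 have shared stretches, and whether their counts lack reads for that reason was not tested. The epithelial list summed to 138 and 386 CPM with Mir141 at 0 in replicate 1. Of its 4 genes with enough counts, 2 were 2-fold or more higher, beside 5.83% of all 309 genes. These 2 were Mir200c (15.4 and 201 CPM) and Mir200a (4.45 and 29.7 CPM). Mir429 had 48.2 and 88.0 CPM, and Mir200b was on the other side of 0 at 69.7 and 54.6 CPM. The choroid plexus list (458 and 391 CPM), the multiciliated list (266 and 202 CPM, with Mir449b and Mir449c at 0) and the liver and pancreas list (203 and 194 CPM) had 0 genes at 2-fold. This covers only genes with 100 or more counts, which were 1, 2 and 2 in these lists. Over all 309 such genes the share was 17.5%, and so few genes cannot be set against it. The part of any of these cell types in the Mir22 difference was not tested.

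**Figure D4:**
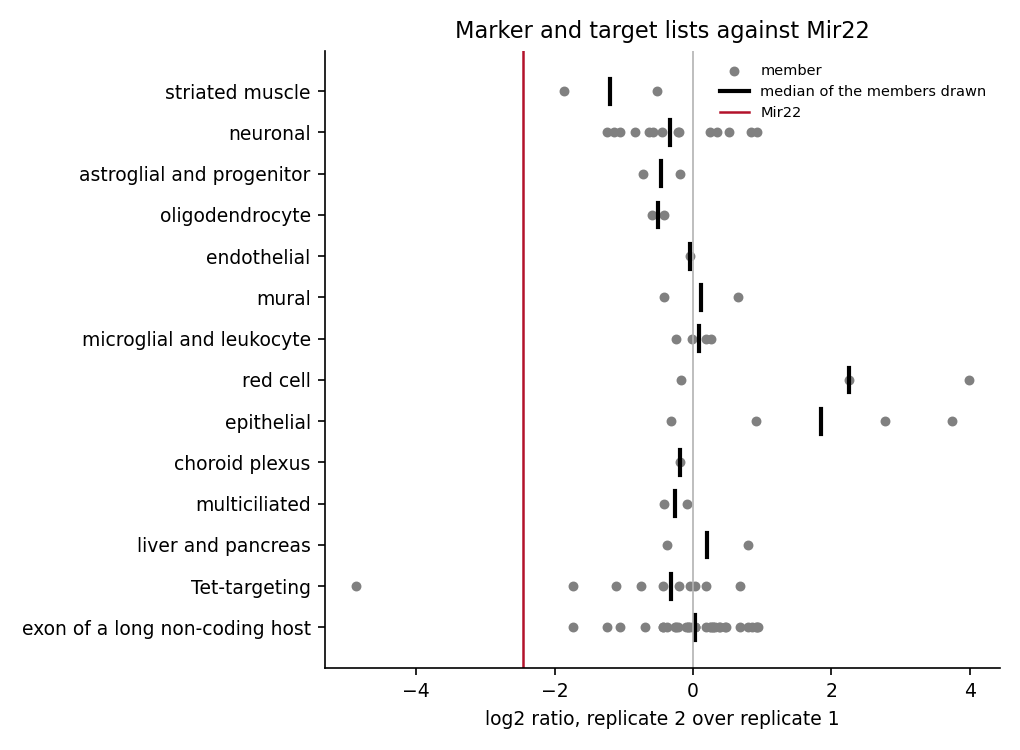
log2 ratio of replicate 2 over replicate 1 (horizontal) of the members with 100 or more counts of each list (grey points), with the median of the members drawn (black bar, Mir22 left out) and Mir22 (red line at -2.45). No list median lies at the red line, and only Mir26a-2, of the Tet-targeting list, lies beyond it.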

How the data were processed

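The 2 libraries are tables deposited by the authors as whole-number read counts per microRNA gene, not normalized. Per the text files deposited with them, mapping was to mm10 with GENCODE M21. Aligner, counter and trimming were not given in the sources used here. Without a header line, the columns were read from their layout as unstranded, own-strand and opposite-strand counts; own-strand counts were used. Entries that name no gene were left out: of all reads they held 42.8% (replicate 1) and 39.9% (replicate 2) as multi-mapped, 16.7% and 20.9% as unmapped, and 4.56% and 4.39% as unassigned. The tables do not separate the arms of a hairpin. Symbols and positions came from GENCODE M21 (mm10) and sequences from RefSeq.

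Log2 ratios used TMM library sizes over genes with 10 or more counts together (edgeR 4.0.16, R 4.3.3). Intervals are exact (95%), and a count of 0 allows 3 counts; both cover counting error only. PCR reads are not independent molecules. No p-value was computed, since 1 group leaves no contrast. Calls are 2-fold or more among genes with 100 or more counts together. The scripts were tested on simulated counts. Folding used ViennaRNA 2.7.2. Other tools were DESeq2 1.42.0, SciPy 1.17.1, NumPy 2.4.6, Matplotlib 3.10.9 and pandas 2.3.3 under Python 3.11.15.

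Mir22, the lists and the rules were chosen with earlier results of these data known, and 1 list is not reported here. Named were the 6 genes nearest in log2 ratio, 2 rank neighbours on each side per library, genes within 1 Mb, genes sharing a seed, up to 3 abundant members of each list or 5 hosted in exons of long non-coding genes, and list members at a log2 ratio of -2 or below. Genes outside this rule are marked as chosen after their values were seen, or stand for a count of 5 or fewer, a list's zeros, or a comparison of size.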

Additional observations from a re-analysis of the deposited data

How the results depend on the processing

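The direction of the Mir22 difference was the same under every scaling tried. Against -2.45, the log2 ratio was -2.42 with DESeq2 size factors, -2.49 with total own-strand counts, -2.54 with all reads of the library, -2.57 with totals without Mir139, the most abundant gene, -2.49 with totals without genes that share 22 bases, and -2.48 with unstranded counts. TMM over all genes, added after seeing the data, gave -2.47. Totals without Mir139 also moved the median log2 ratio of the 309 genes by -0.11. The mean of 9271 CPM rests on which library is used, 15744 CPM without replicate 2 and 2799 CPM without replicate 1, and it was 3317 CPM when all reads of the library were the denominator; no ratio can be formed from 1 library. Genes past 2-fold numbered 54, but 133 with 10 or more counts required, 28 with 1000 or more, and 14 at 4-fold. With 10 or more counts the list medians changed sign for microglia and leukocytes (-0.13 from 0.09) and for liver and pancreas (-0.37 from 0.21), and the striated muscle median was -1.91 in place of -1.20. A lower count threshold admits other genes, a higher one removes some, and 4-fold is a stricter call. A change of scaling moves the log2 ratio of every gene by the same amount, except with unstranded counts, where the counts change too. Depth does not limit the Mir22 ratio, whose counting interval is narrow, but with 1 library per replicate, differences between tissue samples and between library preparations cannot be told apart.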

Other observations

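The following genes were chosen after their values were seen, as those nearest to Mir22 in log2 ratio among the 99 with a mean of 1000 CPM or more, where counting error is small. After Mir22 and Mir21a came Mir487b, a microRNA of the imprinted cluster on chromosome 12, at 11985 CPM in replicate 1 against 3327 CPM in replicate 2 (log2 ratio -1.81, -1.84 to -1.78). Mir140, best known from cartilage, followed at 2353 and 658 CPM (-1.80, -1.86 to -1.74), and Mir874 at 1887 and 713 CPM (-1.36, -1.43 to -1.30). Mir140 lies in an exon of Wwp2 on chromosome 8 and Mir874 in an intron of Klhl3 on chromosome 13. None of these 5 genes has a shared stretch of 22 bases.

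Large differences were more frequent among genes with few counts but not limited to them. Of the 89 genes with 10000 or more counts together, 9 were 2-fold or more lower in replicate 2 and 3 higher (13.5% together). Of the 103 genes with 1000 to fewer than 10000 counts, 13 were lower and 3 higher (15.5%). Of the 117 genes with 100 to fewer than 1000 counts, 14 were lower and 12 higher (22.2%). Over all 309 genes the share was 17.5%. By hairpin GC content, the genes from 50.9% to 56.6%, Mir22 among them, had a median log2 ratio of 0.02 over 77 genes, with 11 genes 2-fold or more lower and 5 higher. The 77 genes with the highest GC content had a median of -0.09, with 5 lower and 1 higher. From 28.4% to 44.4%, 78 genes had 10 lower and 5 higher, and from 44.4% to 50.9%, 77 genes had 10 lower and 7 higher. The medians there were 0.0001 and 0.03. Over all 309 genes, 11.7% were lower and 5.83% higher.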
